A study of Mus musculus with 18 samples.

Results

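The mu-class glutathione transferases were followed in the brain of male 129SV mice that lacked Nrf2 (Nrf2 KO) and of their wild-type controls (Nrf2 WT), both kept without stress. The members were the genes Gstm1 to Gstm7, found by matching the accession of each array probe to RefSeq. The array carried 8 probes for these 7 genes, among 18217 genes and 41174 probes in all: 2 for Gstm1 (A_51_P479311 and A_52_P415215) and 1 for each of the others. RNA came from cortex KO, cortex WT, hippocampus KO, hippocampus WT, brainstem KO and brainstem WT, with 3 arrays in each group and 18 in all. The labels give neither the age of the mice nor how the Nrf2 gene was disrupted, and all mice shared the 129SV background.

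Glutathione transferases join the tripeptide glutathione to reactive, mostly electrophilic compounds, which makes them more soluble and marks them for export from the cell. The mu class is one family of cytosolic enzymes of this kind, which work as dimers, and in the mouse their genes lie side by side in one cluster. Nrf2 is a transcription factor that binds antioxidant response elements in detoxification and antioxidant genes, and mu-class genes of mouse liver are among its known targets. In the brain, glutathione conjugation is associated mainly with glia and with the cells of the blood and fluid barriers.

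In the order of the RefSeq annotation on chromosome 3, the cluster ran Gstm5, Gstm7, Gstm6, Gstm3, Gstm2, Gstm1 and Gstm4. Gstm2 thus stood between Gstm3 and Gstm1, the genes with the clear KO differences described here. The 250 bases before the annotated start are shown, 5′ to 3′ on the strand of the gene, for Gstm1 and Gstm3, for Gstm2 as the gene between them, and for Gstm5 as a member whose KO and WT levels lay close together. Sequences and coordinates are from RefSeq on GRCm38.p6, whereas the array headers name the build mm9. The windows were chr3:108017819-108018068 on the minus strand for Gstm1 (the more downstream of its annotated starts), chr3:107969175-107969424 on the minus strand for Gstm3, chr3:107986421-107986670 on the minus strand for Gstm2, and chr3:107895604-107895853 on the plus strand for Gstm5. Capitals mark the run of 10 bases that the Gstm1 and Gstm3 windows share and, in Gstm5, a match to the core of the antioxidant response element, TGACNNNGC.
Gstm1: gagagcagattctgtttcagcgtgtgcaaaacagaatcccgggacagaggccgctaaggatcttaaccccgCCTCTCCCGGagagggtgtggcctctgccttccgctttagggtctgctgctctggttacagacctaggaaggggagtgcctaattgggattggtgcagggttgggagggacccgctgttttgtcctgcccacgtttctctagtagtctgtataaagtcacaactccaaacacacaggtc
Gstm3: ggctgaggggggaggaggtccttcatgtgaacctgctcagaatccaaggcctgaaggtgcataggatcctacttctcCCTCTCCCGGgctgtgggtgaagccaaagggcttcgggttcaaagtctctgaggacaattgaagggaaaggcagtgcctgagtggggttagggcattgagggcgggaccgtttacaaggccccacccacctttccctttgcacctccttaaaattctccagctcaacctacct
Gstm2: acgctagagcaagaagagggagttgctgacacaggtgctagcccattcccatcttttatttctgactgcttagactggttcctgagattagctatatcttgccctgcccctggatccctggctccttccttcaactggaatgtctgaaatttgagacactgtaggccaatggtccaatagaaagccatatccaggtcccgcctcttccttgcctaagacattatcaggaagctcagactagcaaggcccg
Gstm5: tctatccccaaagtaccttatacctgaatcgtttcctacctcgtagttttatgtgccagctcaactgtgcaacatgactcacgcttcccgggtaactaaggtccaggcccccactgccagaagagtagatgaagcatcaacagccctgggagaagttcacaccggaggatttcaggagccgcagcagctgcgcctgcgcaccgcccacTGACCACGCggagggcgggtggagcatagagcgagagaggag

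All 7 genes had a window in the RefSeq table, 12 windows in all because some genes have several annotated starts. Among the 21 pairs of genes, the Gstm1 and Gstm3 windows were the most alike in a global alignment, with 57.9% identical positions. The next pair reached 54.4%, and the median of the pairs was 51.0%. For genes with several starts the highest identity of a pair was taken, which favours pairs with more windows. Windows of unrelated genes were not aligned, so these values have no outside reference. The Gstm1 window printed was the one more like Gstm3. The capitalised run common to both was also present in windows of other genes, 34 of 32851 windows in all (0.103%). The core TGACNNNGC, searched on both strands, was found in 2 of the 12 windows, 1 of Gstm5 and 1 of Gstm7. It starts 42 bases before the Gstm5 start and 129 bases before that Gstm7 start. Of all 32851 windows of this length, 10.2% held the core. The windows printed for Gstm1, Gstm3 and Gstm2 did not hold these letters, which says nothing about sites further away.

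Levels are given as the log2 of the background-corrected spot signal minus the 75th percentile of the array, so that 0 is the level of that percentile. They describe 1 probe across arrays, and the levels of different probes were not compared as amounts of transcript. All 8 probes were well above background on 18 of 18 arrays and 0 were saturated, so the filter that kept 30066 probes for testing removed no member. The label of each array was checked with Nfe2l2, the gene of Nrf2. Its probe A_51_P411271 read -8.39 to -7.36 in cortex KO, against 0.79 to 1.03 in cortex WT. It read -5.84 to -3.62 in hippocampus KO, against 0.85 to 1.09 in hippocampus WT, and -7.33 to -4.92 in brainstem KO, against 1.10 to 1.39 in brainstem WT. All 9 KO arrays lay below all 9 WT arrays, although the probe was still above background on 3 of 3 hippocampus KO arrays and on 1 of 3 brainstem KO arrays. Region markers followed the labels as well. The summed signal of 5 brainstem markers reached 1.52 to 1.79 in brainstem KO and 1.85 to 1.90 in brainstem WT. It was at most -1.86 on any cortex or hippocampus array. That of 6 cortex markers was 3.75 to 3.81 in cortex KO and 3.60 to 3.76 in cortex WT. In hippocampus it was 3.16 to 3.51 in KO and 3.27 to 3.40 in WT. That of 6 hippocampus markers was 4.64 to 5.10 in hippocampus KO and 4.87 to 5.08 in hippocampus WT. In cortex it was 3.94 to 4.24 in KO and 3.96 to 4.02 in WT.

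**Figure D1:**
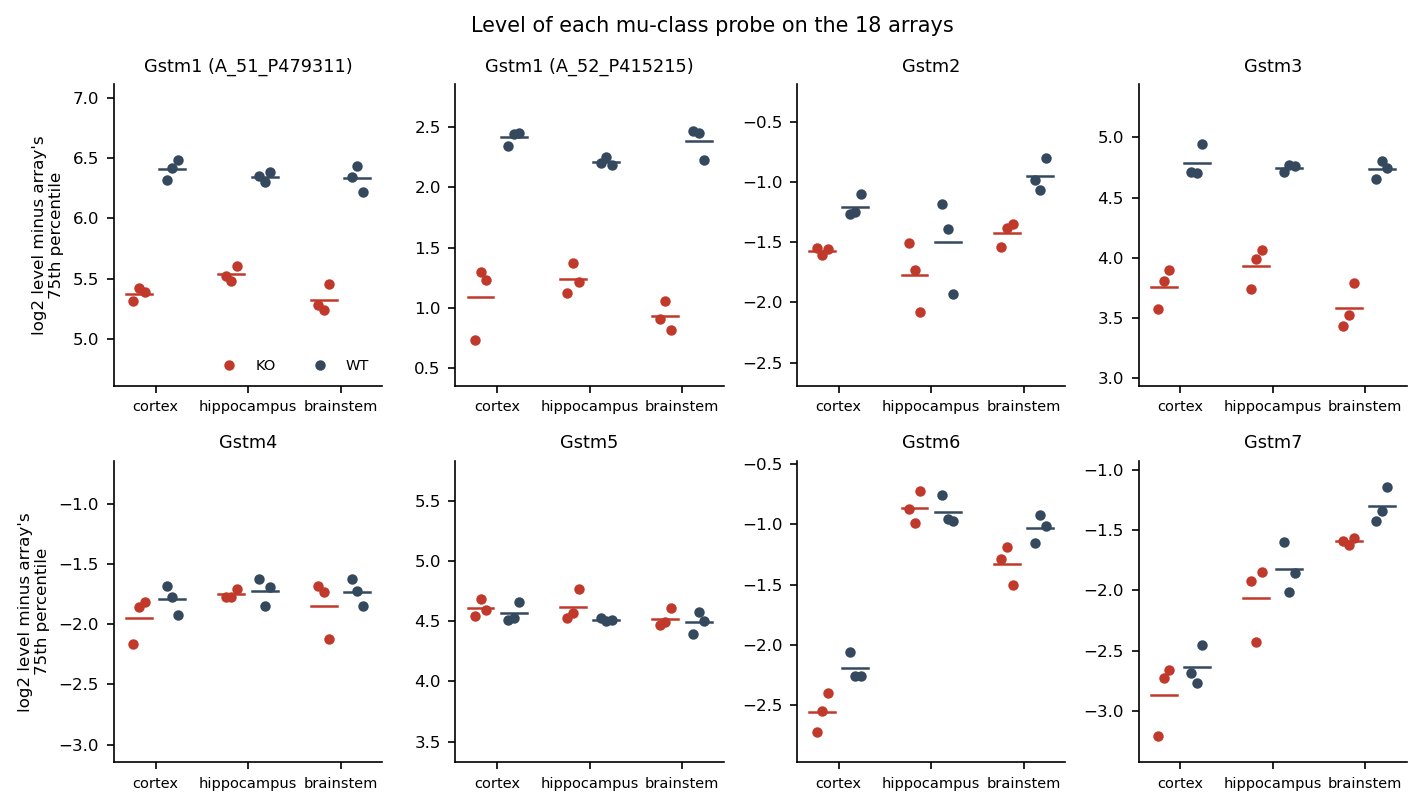
Log2 level minus the array's 75th percentile (vertical axis, the same span in each panel) of the 8 mu-class probes in 3 brain regions. Points are single arrays, 3 per group, KO in red to the left of WT in dark blue, and lines are group means; the KO and WT points separate for both Gstm1 probes and Gstm3 in all 3 regions, and Gstm6 and Gstm7 differ between regions.

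Gstm1 and Gstm3 were lower in Nrf2 KO than in Nrf2 WT mice in cortex, hippocampus and brainstem, at 36.5% to 57.0% of the WT level over the 3 probes. Gstm2, which lies between them in the cluster, and Gstm4, Gstm5, Gstm6 and Gstm7 did not pass the test in any region. The question behind these comparisons is which genes depend on Nrf2 in the unstressed brain.

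Gstm1, a main mu-class enzyme of mouse liver and brain, was read by probe A_51_P479311 at 5.32, 5.42 and 5.39 in cortex KO, against 6.32, 6.41 and 6.48 in cortex WT. In hippocampus it read 5.52, 5.48 and 5.61 in KO, against 6.35, 6.30 and 6.39 in WT. In brainstem it read 5.28, 5.24 and 5.46 in KO, against 6.35, 6.43 and 6.22 in WT. Every KO array lay below every WT array, across regions as well as within them. The cortex KO level was 48.9% of cortex WT (95% confidence interval 42.9% to 55.8%), a log2 difference of -1.03 ± 0.088 (SE, adjusted p = 6.87e-05, limma with Benjamini-Hochberg adjustment over the 30066 probes). In hippocampus the KO level was 57.0% of WT (50.1% to 65.0%, adjusted p = 0.00153 by limma). In brainstem it was 49.8% of WT (43.7% to 56.8%, adjusted p = 9.55e-05 by limma).

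The other Gstm1 probe, A_52_P415215, was lower in KO too. It read 0.74, 1.30 and 1.23 in cortex KO, against 2.34, 2.45 and 2.45 in cortex WT. Its hippocampus levels were 1.12, 1.37 and 1.22 in KO and 2.20, 2.25 and 2.18 in WT, and its brainstem levels were 0.91, 1.06 and 0.82 in KO and 2.47, 2.45 and 2.23 in WT. Again no KO array reached a WT array, and the cortex KO group was the one with the widest spread because its first array was low. The KO level was 39.9% of WT in cortex, 50.9% in hippocampus and 36.5% in brainstem, with adjusted p-values of 4.21e-04, 0.0181 and 1.30e-04 by limma. The difference was larger than that of A_51_P479311 by -0.30 on the log2 scale on average over the regions (exact two-sided permutation test of genotype labels within regions, 8000 arrangements, p = 0.001, adjusted p = 0.00117 over 7 pairs of probes).

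Gstm3, another transferase of the cluster, read 3.58, 3.81 and 3.90 in cortex KO, against 4.71, 4.71 and 4.94 in cortex WT. Hippocampus levels were 3.75, 3.99 and 4.07 in KO and 4.71, 4.77 and 4.76 in WT. Brainstem levels were 3.43, 3.53 and 3.79 in KO and 4.65, 4.80 and 4.75 in WT. The KO and WT arrays did not overlap in any region, and the KO arrays spread more widely than the WT arrays in each. The KO level was 49.2% of WT in cortex (41.1% to 58.8%, adjusted p = 0.00230), 57.0% in hippocampus (47.6% to 68.1%, adjusted p = 0.0408) and 45.0% in brainstem (37.7% to 53.9%, adjusted p = 6.36e-04), all by limma. The hippocampus value was the weakest of these calls: it was lost on leaving out any 1 of the 6 hippocampus arrays, with adjusted p-values of 0.0930 to 0.234 by limma, while the difference stayed between -0.88 and -0.72. The hippocampus call of the probe A_52_P415215 for Gstm1 was kept in 1 of the 6 such fits (adjusted p 0.0451 to 0.142).

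These 3 probes were the only mu-class probes called in each region, 3 of 8, all lower in KO. Over all 30066 probes, 0.0299% were called lower in cortex, 0.0166% in hippocampus and 0.0233% in brainstem at the same adjusted p of 0.05. With the 3 regions averaged, the KO minus WT difference was -0.95 ± 0.051 for A_51_P479311, -1.25 ± 0.077 for A_52_P415215 and -0.996 ± 0.070 for Gstm3, with adjusted p-values of 1.21e-07, 6.01e-07 and 3.11e-06 by limma. Here too 3 of 8 were called lower, against 0.0399% of all probes. By p-value these probes ranked 4, 5 and 6 among all probes in the averaged comparison. The calls in single regions drew on the spread of all 18 arrays: when only the 6 arrays of a region were fitted, 0 of 8 were called in any region (adjusted p 0.0820 to 0.665 for these 3 probes, limma), with the same differences.

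The arrays lay on 5 slides, and each region had KO and WT arrays together on 2 slides. Within these 6 sets of a slide and a region, KO was lower in 6 of 6 for both Gstm1 probes and for Gstm3. The within-slide difference ranged from -1.13 to -0.76 for A_51_P479311, from -1.48 to -0.92 for A_52_P415215 and from -1.25 to -0.74 for Gstm3. In tissue RNA, fewer cells of a type and less RNA per cell cannot be told apart.

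**Figure D2:**
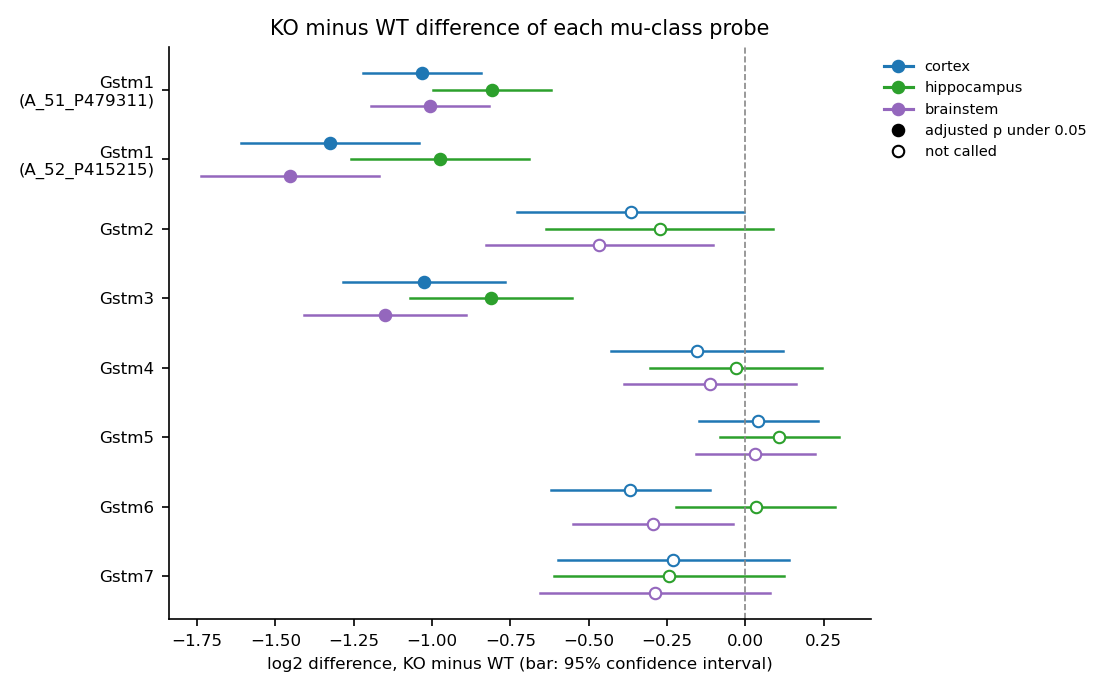
Log2 difference, KO minus WT (horizontal axis), of each mu-class probe in cortex, hippocampus and brainstem, from 3 KO and 3 WT arrays per region; bars are 95% confidence intervals and filled points have an adjusted p under 0.05. The 3 lower probes lie between -1.45 and -0.81, and the other 5 between -0.47 and 0.11.

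Gstm2, whose human counterpart conjugates aminochrome, an oxidation product of dopamine, read -1.55, -1.60 and -1.56 in cortex KO, against -1.26, -1.25 and -1.10 in cortex WT. Brainstem levels were -1.54, -1.38 and -1.35 in KO and -0.99, -1.07 and -0.81 in WT. In hippocampus they were -1.51, -1.73 and -2.08 in KO and -1.19, -1.39 and -1.93 in WT. The groups were apart in cortex and brainstem and overlapped in hippocampus, where both genotypes spread widely. Among all tested probes, the KO and WT arrays did not overlap in 5.68% in cortex, 8.02% in hippocampus and 6.33% in brainstem. The averaged difference was -0.37 ± 0.098 (95% confidence interval -0.58 to -0.16, unadjusted p = 0.00194, adjusted p = 0.596 by limma), and within slides KO was lower in 6 of 6 sets, by -0.54 to -0.25. Gstm2 therefore did not pass the test. The difference of its probe was smaller than that of the Gstm1 probe A_51_P479311 by 0.58 on the log2 scale (exact permutation test, p = 5e-04, adjusted p = 7e-04 over 7 pairs).

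Gstm5, a member known from brain and testis, had nearly the same level in both genotypes. It read 4.54, 4.68 and 4.59 in cortex KO, against 4.51, 4.53 and 4.65 in cortex WT, and 4.46, 4.49 and 4.61 in brainstem KO, against 4.39, 4.58 and 4.50 in brainstem WT. In hippocampus the 3 KO arrays, at 4.53, 4.57 and 4.76, lay just above the WT arrays, at 4.52, 4.50 and 4.51. The averaged difference was 0.06 ± 0.051, with a 95% confidence interval of -0.05 to 0.17 (adjusted p = 0.817 by limma). With quantile normalization between arrays the averaged difference was -4.2e-04, so its direction depends on the scaling.

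Gstm4 overlapped between KO and WT in all 3 regions. Its KO levels were -2.17 to -1.82 in cortex, -1.77 to -1.71 in hippocampus and -2.12 to -1.69 in brainstem, against WT levels of -1.92 to -1.68, -1.85 to -1.62 and -1.85 to -1.63 in the same order. The averaged difference was -0.10 ± 0.074 (95% confidence interval -0.26 to 0.06, adjusted p = 0.797 by limma).

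Gstm6 read -2.72, -2.55 and -2.40 in cortex KO, against -2.06, -2.26 and -2.26 in cortex WT. In hippocampus it read -0.87, -0.99 and -0.73 in KO, against -0.76, -0.96 and -0.97 in WT, and in brainstem -1.29, -1.19 and -1.50 in KO, against -1.16, -0.92 and -1.01 in WT. The genotypes were apart in cortex and brainstem and mixed in hippocampus. The differences were -0.37 ± 0.12 in cortex, 0.03 ± 0.12 in hippocampus and -0.29 ± 0.12 in brainstem, with adjusted p-values of 0.9999, 0.9998 and 0.9998 by limma, and -0.21 ± 0.069 on average (adjusted p = 0.769 by limma).

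Gstm7 gave -3.21, -2.73 and -2.66 in cortex KO, against -2.69, -2.76 and -2.45 in cortex WT. Hippocampus levels were -1.92, -2.43 and -1.85 in KO and -1.60, -2.01 and -1.85 in WT. In brainstem the KO arrays, at -1.59, -1.62 and -1.57, lay below the WT arrays, at -1.43, -1.34 and -1.15, whereas the other regions overlapped. The averaged difference was -0.25 ± 0.099 (95% confidence interval -0.47 to -0.04, unadjusted p = 0.0222, adjusted p = 0.769 by limma). Within slides KO was lower in 6 of 6 sets, by -0.42 to -0.21.

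Over the 8 probes, 7 differences were negative in cortex, 6 in hippocampus and 7 in brainstem. Their median was -0.37 in cortex, -0.26 in hippocampus and -0.38 in brainstem, beside medians of -0.00142, 0.0103 and -0.00353 over all 30066 probes. Set against the Gstm1 probe A_51_P479311 on the same arrays, Gstm4, Gstm5, Gstm6 and Gstm7 changed less, by 0.85, 1.01, 0.74 and 0.69 on the log2 scale. For each of these 4 the exact permutation p was 2.5e-04, the smallest that the 8000 arrangements can give, and the adjusted p over 7 pairs was 4.38e-04. With labels swapped only within same-numbered KO and WT arrays, the exact two-sided permutation p of these 4, of Gstm2 and of A_52_P415215 was 0.00391, the smallest that 512 arrangements can give (adjusted p = 0.00456, 9 of 9 pairs of arrays in the same direction). Gstm3 differed from Gstm1 by -0.05 in its change (exact permutation p = 0.374, or 0.258 within pairs of arrays). The permutation tests here and above, and the main limma fit, treat arrays of different regions as separate mice, which the labels do not state. If regions shared mice, these p-values and those of limma for the averaged differences could be too small. With same-numbered arrays of a genotype as a random block for the mouse, 3 of 8 probes were called in the averaged comparison by limma. The tests also separated the 2 probes of Gstm1, so such differences can stem from the probe as well as the gene. The mean signal in cortex WT was 65918 for A_51_P479311, 18388 for Gstm5 and 126 to 338 for Gstm2, Gstm4, Gstm6 and Gstm7. The part of the probe was not tested.

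The KO differences of the mu-class probes were then compared between regions. Hippocampus had the smallest difference for both Gstm1 probes and for Gstm3, but 0 of 8 probes were called in any of these comparisons by limma. Among all probes 0% were called for hippocampus against cortex, 0% for brainstem against cortex and 0% for brainstem against hippocampus, with 237, 255 and 275 of 30066 probes at an unadjusted p under 0.05. For A_51_P479311 the KO difference in hippocampus was less negative than in cortex by 0.22, with a 95% confidence interval of -0.05 to 0.49. For Gstm3 it was less negative by 0.21, with an interval of -0.15 to 0.58. The KO difference of A_52_P415215 was more negative in brainstem than in hippocampus by -0.48 ± 0.19 (adjusted p = 0.9999 by limma). That of Gstm6 was 0.03 in hippocampus and -0.37 in cortex, higher in hippocampus by 0.40 ± 0.17 (adjusted p = 0.99998 by limma). The Nfe2l2 probe also read higher in hippocampus KO than in the KO arrays of the other regions except for overlap with 1 brainstem KO array, and its part in these values was not tested.

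Gstm1 and Gstm3 had similar profiles over the 18 arrays, in which the KO difference of both is included. Their likeness within groups was not tested. After each probe was centred on its own mean, A_51_P479311 and the Gstm3 probe differed by a root mean square of 0.10 on the log2 scale over the 18 arrays, against a median of 0.57 between Gstm1 and all 13345 genes compared. Each was the nearest of the 13345 to the other, by a measure that includes the genotype difference. The next nearest to both was Slc11a1, a metal transporter of phagocytes, at 0.24 from Gstm1 and 0.28 from Gstm3. It was itself lower in KO, with an averaged difference of -0.83 (adjusted p = 9.17e-04 by limma). The nearest after that were Txlnb for Gstm1, at 0.36, and Wnt7a, a secreted signalling protein, for Gstm3, at 0.40. Neither passed the KO test (adjusted p = 0.494 for Txlnb and 0.769 for Wnt7a by limma). Whether the Gstm1 and Gstm3 probes also bind each other's transcript was not tested, because the files hold no probe sequences. Gstm2 ranked 41 in likeness to Gstm1 and 96 in likeness to Gstm3. In the other direction Gstm1 ranked 7573 and Gstm3 ranked 8909 in likeness to Gstm2, with root mean square differences of 0.42 and 0.46, above the median of 0.40 between Gstm2 and all genes compared.

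**Figure D3:**
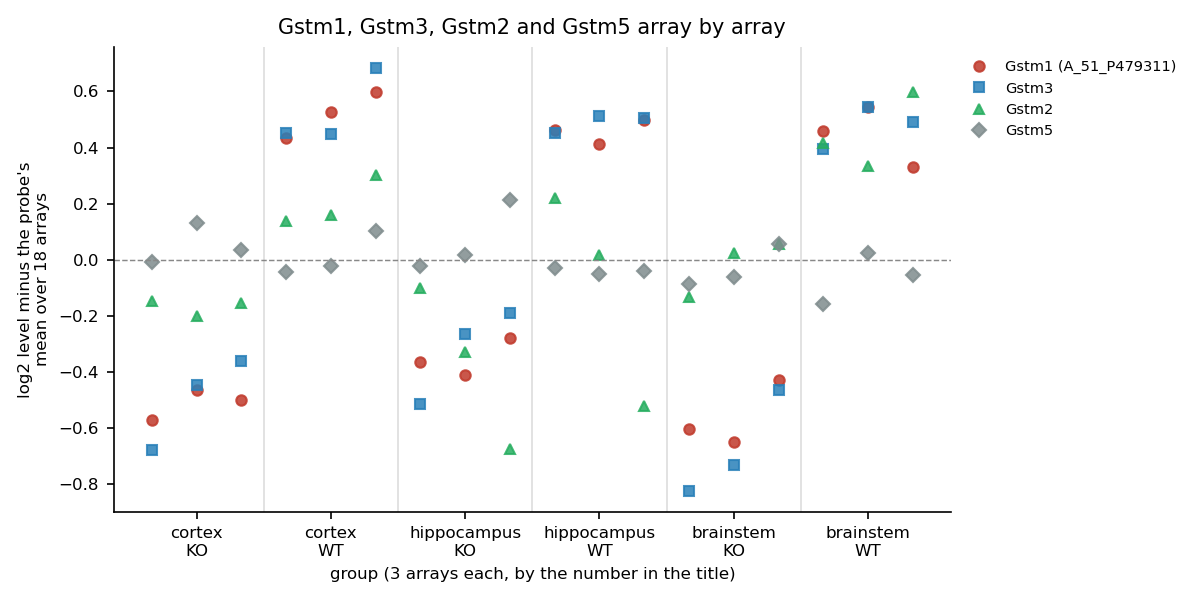
Log2 level minus the probe's own mean over the 18 arrays (vertical axis) for Gstm1 (A_51_P479311), Gstm3, Gstm2 and Gstm5, array by array in the 6 groups (horizontal axis, KO left of WT within each region, 3 arrays each). Gstm1 and Gstm3 differ by a root mean square of 0.10, a measure that includes the KO difference of each. Gstm2 shows a smaller KO difference that did not pass the test, and Gstm5 has the smallest spread of the 4.

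Among WT mice, Gstm6 and Gstm7 differed between brain regions, and Gstm1, Gstm3, Gstm4 and Gstm5 did not pass the test. Gstm6 was highest in hippocampus and brainstem and lowest in cortex. Gstm7 was highest in brainstem, then hippocampus, then cortex. The Gstm6 level of hippocampus WT was 2.46 times that of cortex WT (log2 difference 1.30 ± 0.12, adjusted p = 5.28e-06), and that of brainstem WT was 2.23 times that of cortex WT (1.16 ± 0.12, adjusted p = 2.80e-06, both limma). Hippocampus and brainstem differed by -0.14 ± 0.12 for Gstm6, brainstem minus hippocampus, which did not pass the test (adjusted p = 0.383 by limma). Gstm7 was 1.76 times as high in hippocampus WT as in cortex WT (adjusted p = 0.00456) and 2.52 times as high in brainstem WT as in cortex WT (adjusted p = 2.61e-05, both limma). The KO arrays had the same order of regional means for both genes, with Gstm6 at -0.86, -1.33 and -2.56 and Gstm7 at -2.07, -1.59 and -2.87 in hippocampus, brainstem and cortex.

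In hippocampus against cortex 2 of 8 mu-class probes were called, where 16.4% of all probes were, and in brainstem against cortex again 2 of 8, where 35.7% of all probes were. These comparisons share the cortex WT arrays. The cortex arrays lay on slides of their own, so that region and slide cannot be told apart in these comparisons. With the slide as a random block the Gstm6 differences were 1.31 and 1.13 and the Gstm7 differences 0.81 and 1.30, and all 4 remained called. The summed signal of 8 oligodendrocyte markers was 8.35 to 8.57 in brainstem WT, 7.50 to 7.84 in hippocampus WT and 7.36 to 7.62 in cortex WT, and that of 10 astrocyte markers 8.41 to 8.60, 7.75 to 7.86 and 7.98 to 8.15 in the same regions. Their part in the regional differences was not tested.

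In brainstem against hippocampus 2 of 8 probes were called, where 40.5% of all probes were. Gstm2 was 1.46 times as high in brainstem WT as in hippocampus WT (0.55 ± 0.17, adjusted p = 0.0181) and Gstm7 1.43 times as high (0.52 ± 0.17, adjusted p = 0.0258, both limma). Neither was called with the slide as a fixed block (0.37, adjusted p = 0.152 for Gstm2 and 0.43, adjusted p = 0.140 for Gstm7). Without the third hippocampus WT array, or without the third brainstem WT array, 0 of the 8 probes were called. Gstm1 and Gstm3, which differed by genotype, did not pass the test between regions of WT mice: the interval of each difference reached from -0.26 to 0.18 at most for A_51_P479311, from -0.49 to 0.46 for A_52_P415215 and from -0.31 to 0.25 for Gstm3. The hippocampus WT and cortex WT arrays of A_52_P415215 did not overlap, as was so for 40.5% of all tested probes.

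**Figure D4:**
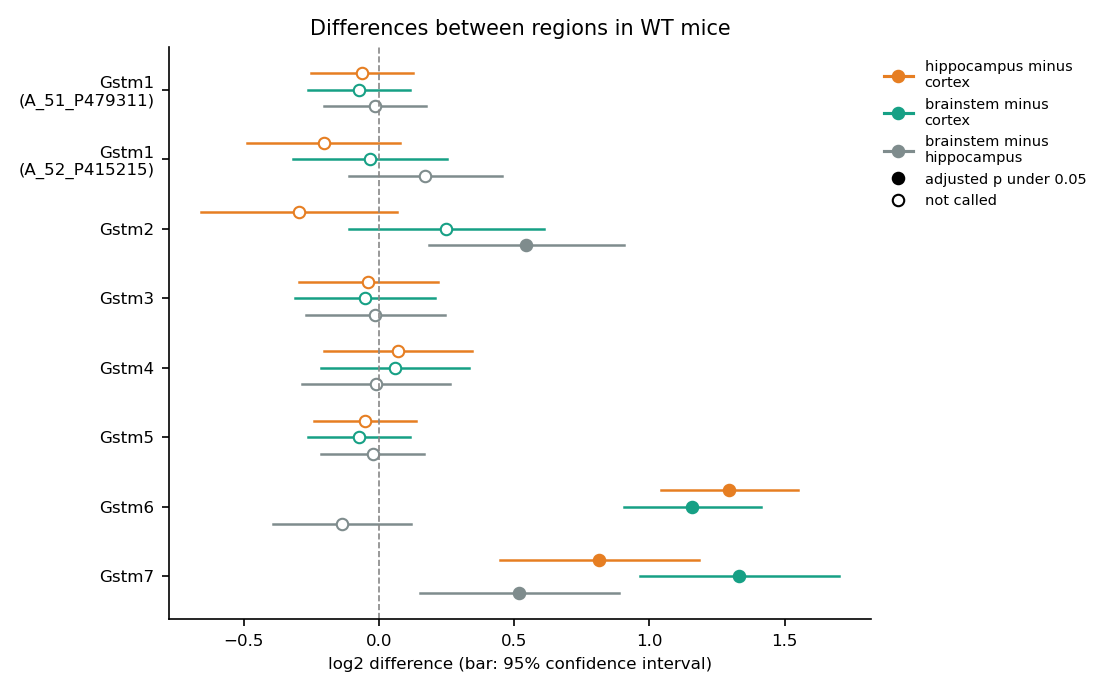
Log2 difference between regions in WT mice (horizontal axis) for each mu-class probe, from 3 arrays per region; bars are 95% confidence intervals and filled points have an adjusted p under 0.05. Gstm6 and Gstm7 lie 0.81 to 1.33 above cortex in hippocampus and brainstem, while the Gstm1, Gstm3, Gstm4 and Gstm5 intervals all include 0.

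The genes that make, use and carry on glutathione conjugates were set beside the mu class, again as KO minus WT. Of 23 glutathione transferases outside the mu class, 16 were tested and 0 were called in any region by limma. With the regions averaged, 10 of the 16 differences were positive and 6 negative, between -0.38 and 0.30, with a median of 0.06. The smallest p-values in this list belonged to Gstt1, a theta-class transferase (0.22 ± 0.077, unadjusted p = 0.0121), and Ptges, a prostaglandin E synthase (-0.15 ± 0.054, unadjusted p = 0.0161), both with an adjusted p of 0.769 by limma.

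Of 13 genes of glutathione synthesis, recycling and precursor uptake, 13 were tested and 0 were called in any region by limma. The averaged differences lay between -0.34 and 0.20, with a median of -0.04, and 8 of 13 were negative. Cbs, which makes cystathionine on the route to cysteine, had -0.34 ± 0.11 and Gss, glutathione synthetase, had -0.15 ± 0.065 (adjusted p = 0.769 for both by limma). Of 19 genes of conjugate export and processing, 15 were tested and 0 were called in any region by limma, with averaged differences between -0.45 and 0.33. Nat8, which acetylates cysteine conjugates, had 0.33 ± 0.089 (unadjusted p = 0.00205, adjusted p = 0.596 by limma). Of the 8 annotated genes on each side of the cluster, 7 were on the array and 6 were tested, among them Csf1, Ampd2 and Gnai3. None of these 6 was called in any region by limma, and their averaged differences lay between -0.10 and 0.22.

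Markers of the cell types that could hold these transcripts were counted in the same fit. In each region 0 of 10 astrocyte markers, 0 of 8 markers each of neurons, oligodendrocytes, microglia and vessels, and 0 of 6 of meninges were called by limma. The median KO minus WT difference of the astrocyte markers was 0.06 in cortex, 0.13 in hippocampus and -0.03 in brainstem. Choroid plexus and ependyma markers varied most: 0 of 7 were called, their median difference was -0.59 in cortex, -0.98 in hippocampus and 0.33 in brainstem. Their summed signal ran from 1.92 to 4.47 in hippocampus KO and from 1.87 to 4.99 in hippocampus WT. The 4 erythrocyte markers tested were all positive in each region, with medians of 0.41, 0.52 and 0.19 and 0 called. The part of these markers in the mu-class values was not tested.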

How the data were processed

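Total RNA was amplified, labelled with Cy3 and hybridised to 18 Agilent 1-colour mouse arrays, per the labels. Per the file headers, Feature Extraction 10.7.3.1 gave each spot a processed intensity after background subtraction, and build mm9 is named there. A deposited series-wide table repeats these intensity values, but 7 of its 18 columns equalled the array of another title (3 of them from another group; median differences at most 0.0740%), so the scanner files were used and the table served as an alternative. Spots flagged as outliers (30 to 140 per array) were left out, log2 was taken and the 75th percentile of the array (636 to 1102) subtracted. Between 64.6% and 74.7% of probes were well above background, and 30066 probes above it on all 3 arrays of a group were tested. RefSeq gave 26690 of 41174 probes 1 symbol.

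A model with 1 mean per group over 18 arrays was fitted with limma 3.58.1 in R 4.3.3 (12 residual and 2.48 prior degrees of freedom) for 10 comparisons, two-sided. The fit was checked on simulated data with independent arrays. These data held no pairs or slides, so the check does not cover arrays that vary together. Calls needed an adjusted p under 0.05 (Benjamini-Hochberg over 30066 probes). Depth is not a term here: 3 arrays per group limit the precision, and p-values cover only the spread among these arrays, which may be technical. The named genes were all members, the 3 genes most like each called member, and from each list every called gene or else the 2 with the smallest p. The members, gene lists and marker lists were chosen with earlier results of these data known.

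KO and WT arrays with the same number in a region deviated together (r over 0.1) in 9 of 9 pairs, with r 0.243 to 0.632. The numbers were therefore taken to pair arrays, although the main fit did not use the pairs. The arrays of each pair also lay on the same slide, and the part of the slide in these correlations was not tested. This pairing comes from the data, since the labels only number the mice. Arrays of the same genotype and number in different regions correlated at r over 0.1 in 14 of 18 pairs (r -0.0992 to 0.711). The rest were 0.0991, 0.0771, 0.0477 and -0.0992. The labels do not say whether such arrays share an animal. Normexp used the median spot signal because the files lack the mean.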

Additional observations from a re-analysis of the deposited data

How the results depend on the processing

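The KO calls of Gstm1 and Gstm3 kept their direction under every alternative run: normexp, quantile and median scaling, other filters, 1 probe per gene, other moderation, blocks for number, mouse and slide, and each array left out. The slide as a random block and the swaps of labels within pairs of arrays were chosen after seeing the data, and the fixed slide block could not be fitted for regions against cortex. With the number as a replicate block, 3 of 8 probes were called lower in each region and on average, and the block changed no mu-class call. Over all probes it called 21 against 14 in the averaged comparison. When only the groups compared were fitted, 0 mu-class probes were called in cortex, hippocampus or brainstem KO, and 1 in WT brainstem against hippocampus. The fixed slide block gave 0 there. In the deposited table by column title, 0 were called in the 4 KO comparisons and in WT hippocampus against cortex, and 1 in each WT comparison of brainstem. Its brainstem columns equalled the arrays of their titles, but the fit shares 1 estimate of the spread with the columns that did not. For Gstm6 in cortex KO the SE was 0.44 in this fit, against 0.12 in the main fit. With 1 array left out, the hippocampus KO count ranged from 1 to 2 and the count for WT brainstem against hippocampus from 0 to 2. Gstm3 in hippocampus was not called with median centring (adjusted p = 0.202 by limma) or without a filter (adjusted p = 0.0841 by limma).

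Signs turned only for differences that were not called. The turns listed here are those that moved by more than 1 SE of the main fit. Smaller turns also occurred. With 1 array left out, the KO difference in hippocampus went down to -0.036 for Gstm6 and up to 0.019 for Gstm4. With quantile normalization Gstm1 (A_51_P479311) read 0.083 and Gstm5 0.056 in WT hippocampus against cortex, and Gstm5 -4.2e-04 in the averaged KO difference. In WT brainstem against hippocampus the slide block gave 0.21 for Gstm3 and 0.066 for Gstm5, and the deposited table gave 0.26 for Gstm1 (A_51_P479311) and 0.31 for Gstm3. That table also gave Gstm6 0.18 in cortex KO and -0.44 in hippocampus KO, and Gstm7 0.12 in cortex KO. Gstm4 in brainstem ranged from -0.19 to 0.024, the last without brainstem KO array 3. The values from that table compare other arrays than the titles say. Its columns titled cortex KO 3, hippocampus WT 3 and hippocampus KO 3 hold arrays of another group. The cause of the other changes was not tested.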

Other observations

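The columns of the deposited table were matched to the scanner files by their values over the probes with 1 spot. The Nfe2l2 probe checked only the genotype in the scanner titles. In the scanner files all 9 KO arrays read below all 9 WT arrays, whereas the table column titled as cortex KO 3 equals the scanner file of hippocampus WT 1, the column titled hippocampus WT 3 equals that of hippocampus KO 1, and the column titled hippocampus KO 3 equals that of cortex KO 3. These columns cross genotype or region. From the table, 0 mu-class probes were called in the KO comparisons.

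Between Gstm6 and Gstm7, which were both called against cortex, the root mean square difference over the 18 arrays was 0.39 on the log2 scale. Gstm7 ranked 56 among 13345 genes in likeness to Gstm6, and Gstm6 ranked 352 in likeness to Gstm7. The most alike upstream windows of this pair, which has several starts for each gene, were 53.1% identical, against a median of 51.0% over the 21 pairs.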
